A study of Mus musculus with 12 samples.

Results

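The dystrophin-associated complex was described here by 8 of its genes, Dmd, Utrn, Dag1, Sgca, Sgcb, Sgcd, Dtna and Sspn, out of 33641 gene symbols with values. They were chosen by symbol, and all 8 passed the filter that kept 13158 genes. Between them they had 51 transcript rows, of which 26 were kept. Values are TPM, transcript abundance per length scaled to a fixed total of 1000000 per library. RNA came from the myocardium of male C57BL/6 wild-type mice, 3 in each of 4 groups. Mice had a sham operation or a myocardial infarction (MI), and the 2 surgical arms were each given vehicle or prednisone, a synthetic glucocorticoid. Prednisone was injected intraperitoneally at 1 mg/kg once a week for 6 weeks at lights-on, from 2 weeks after surgery, and hearts were taken 24 hours after the last dose. The labels give the mice as about 16 weeks old in one field and about 10 weeks old in another. All groups were wild type, so no complex gene was mutated, and which region of the infarcted heart was sampled is not given in the labels. Each library came from 1 mouse.

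Dystrophin (Dmd) is a long rod-shaped protein that ties actin filaments under the muscle cell membrane to a group of membrane proteins, and utrophin (Utrn) is its close relative. The link across the membrane is dystroglycan (Dag1), whose sugar chains bind laminin in the matrix, flanked by the sarcoglycans and sarcospan. Loss of dystrophin or of a sarcoglycan leaves the cardiomyocyte membrane fragile during contraction and causes muscular dystrophy with cardiomyopathy.

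The 12 libraries were not alike in composition. Between 11690 and 14307 genes reached 1 TPM, with the highest number in MI vehicle replicate 3, and mitochondrial transcripts took 21.6% to 42.0% of TPM. The 10 cardiomyocyte markers, none of them at 0 in all libraries, summed to 27079 to 33673 TPM with MI and vehicle, and to 37041 to 44026 TPM elsewhere. Summed fibroblast markers ran from 1912 to 2186 TPM with MI and vehicle, against 868 to 1445 TPM in the other groups. Macrophage markers summed to 1141 TPM in MI vehicle replicate 3 and to 405 TPM or less outside MI with vehicle. MI hearts with prednisone stood apart in other ways. The 6 atrial markers summed to 4432 to 6285 TPM there and to 887 to 4169 TPM in the other 9 libraries. Nuclear copies of mitochondrial genes took 15.3% to 20.3% of TPM there and 9.32% to 14.6% elsewhere. The part of these shifts in the results was not tested. In bulk tissue, fewer cells of a type and less RNA per cell cannot be told apart.

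The genes differed widely in level. In sham hearts with vehicle, the mean was 70.4 TPM for Dag1, 67.7 TPM for Sgca, 46.6 TPM for Sspn and 34.5 TPM for Sgcb. The other 4 were lower, at 17.6 TPM for Dtna, 15.8 TPM for Sgcd, 13.4 TPM for Dmd and 9.06 TPM for Utrn. Within this order the ranges over mice overlapped between Dag1 and Sgca, between Sgcd and Dmd and between Dmd and Utrn. In MI hearts with prednisone Sgca led with 59.0 TPM and Dag1 followed with 44.5 TPM. Sgcd was then last, with 5.14 TPM against 6.65 TPM for Utrn.

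**Figure D1:**
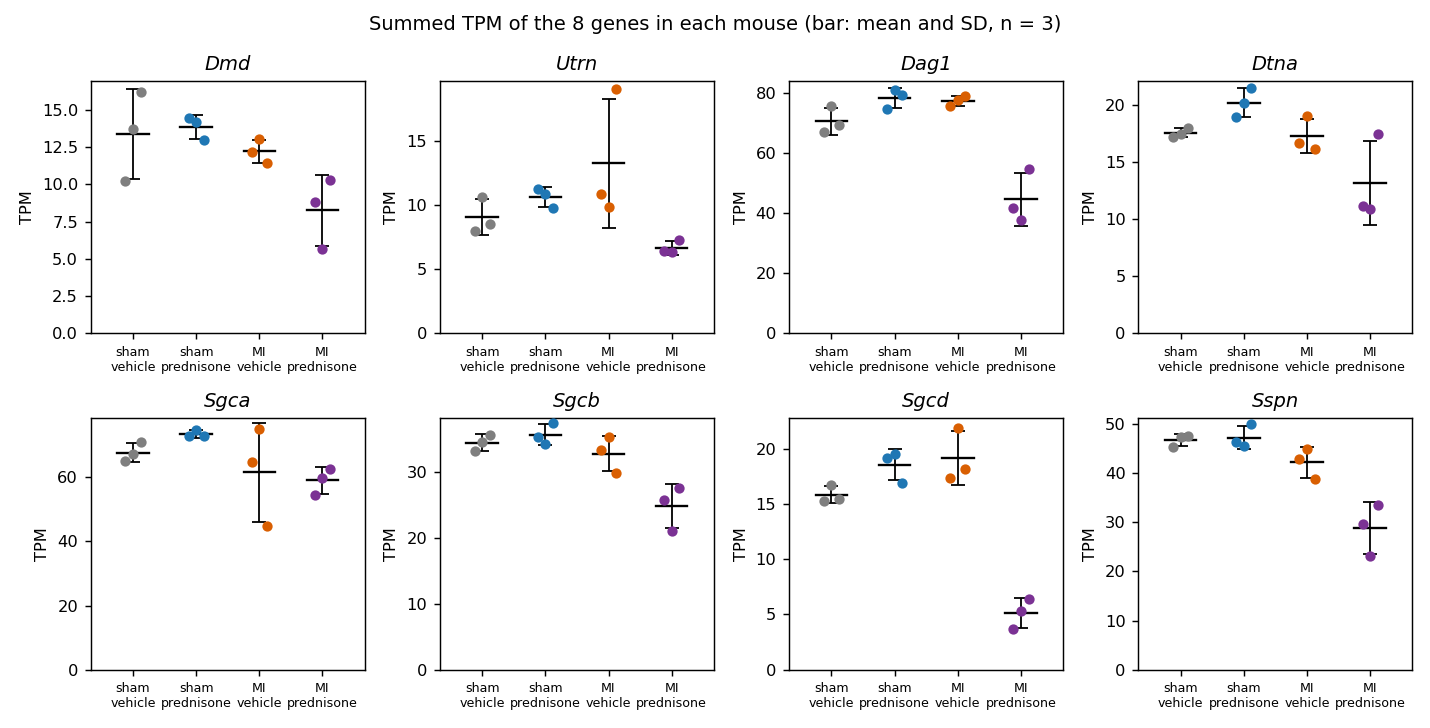
Summed TPM of each of the 8 genes (y axis, from 0) in the 4 groups; points are mice, and bars show the mean and SD of 3 mice. Sgcd lies between 3.66 and 6.42 TPM in the 3 MI hearts with prednisone and between 15.3 and 21.9 TPM in the other 9.

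MI alone moved 0 of the 8 genes past the threshold, beside 16% of all genes. Prednisone in sham hearts also moved 0 of the 8, beside 0.114%. With both, 6 of the 8 genes fell against sham hearts given prednisone, beside 14.1% of all genes. Against MI hearts given vehicle 5 of the 8 fell, beside 34.9%. Sgcd fell furthest, from means of 19.1 TPM in MI hearts with vehicle and 18.5 TPM in sham hearts with prednisone to 5.14 TPM, and the other 7 genes were lower by 0.03 to 0.85 on the log2(TPM + 1) scale, on which changes of low genes are understated. Falls were common in the second comparison, where 34.9% of all genes were called lower, and Sgcd lay far below the median gene in both.

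Between MI and sham hearts given vehicle, 0 of the 8 genes were called at a limma adjusted p under 0.05, where 16% of all genes were. At an unadjusted p under 0.05 there was 1, Utrn, beside 42.2% of all genes. The genes' median change was -0.05, beside 0.39 over all genes. That shift was uneven over mice. Against the mean of sham hearts with vehicle, the median gene lay at 0.14, 0.25 and 0.74 in MI vehicle replicates 1, 2 and 3. These libraries also enter the comparison of prednisone with vehicle in MI hearts. Between prednisone and vehicle in sham hearts, limma called 0 of the 8, beside 0.114% of all genes, and 0 had an unadjusted p under 0.05, beside 3.56%. All 8 estimates were positive there, from 0.02 to 0.21, and 31.4% of all genes were negative.

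For MI against sham under prednisone, 6 of 8 genes were called lower (limma adjusted p under 0.05), and 14.1% of all genes were. Their median change was -0.66, beside -0.06 over all genes. For all 8, every MI heart lay below every sham heart, as was so for 32.2% of all genes. For prednisone against vehicle in MI hearts, 5 of 8 were called lower and 34.9% of all genes were. The median was -0.55, beside -0.41 over all genes, and groups did not overlap for 6 of the 8, beside 42.6% of all genes. In the interaction, which tests whether the prednisone effect differed between MI and sham hearts, 4 of 8 were called, Dag1, Sgcd, Sspn and Utrn, beside 20.7% of all genes called in that direction. These comparisons share groups of mice, so one does not bear out another. Leaving out 1 mouse gave 3 to 6 calls in the first of them, with 3 reached without sham prednisone replicate 3, and 4 to 7 in the second. In the interaction it gave 2 to 6, with 2 reached without sham vehicle replicate 1 or 3, without any 1 of the sham prednisone mice, and without MI prednisone replicate 1 or 2.

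How many genes were called moved with the scaling. When libraries were rescaled by the median ratio to a common reference, 3 of 8 were called between MI and sham hearts given prednisone, 2 of 8 between prednisone and vehicle in MI hearts and 1 in the interaction. After subtraction of a smooth curve of change against transcript length, 1 was called in each, Sgcd. That fit has no value for Dtna, whose transcripts had no length here, and covered the 11894 genes with a length. Calls over all genes moved as well. The share of all genes called at the same scaling is not set beside these counts. They therefore do not show whether the 8 genes differed from other genes at that scaling. Over all alternatives run, they ranged from 950 to 3648 between MI and sham hearts given prednisone. For prednisone against vehicle in MI hearts the range was 902 to 6221, and in the interaction 97 to 4496. The general shift grew with length. In MI hearts, the median change under prednisone was -0.05 for genes with transcripts under 1000 bases and -0.69 for those of 8000 bases or more.

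**Figure D2:**
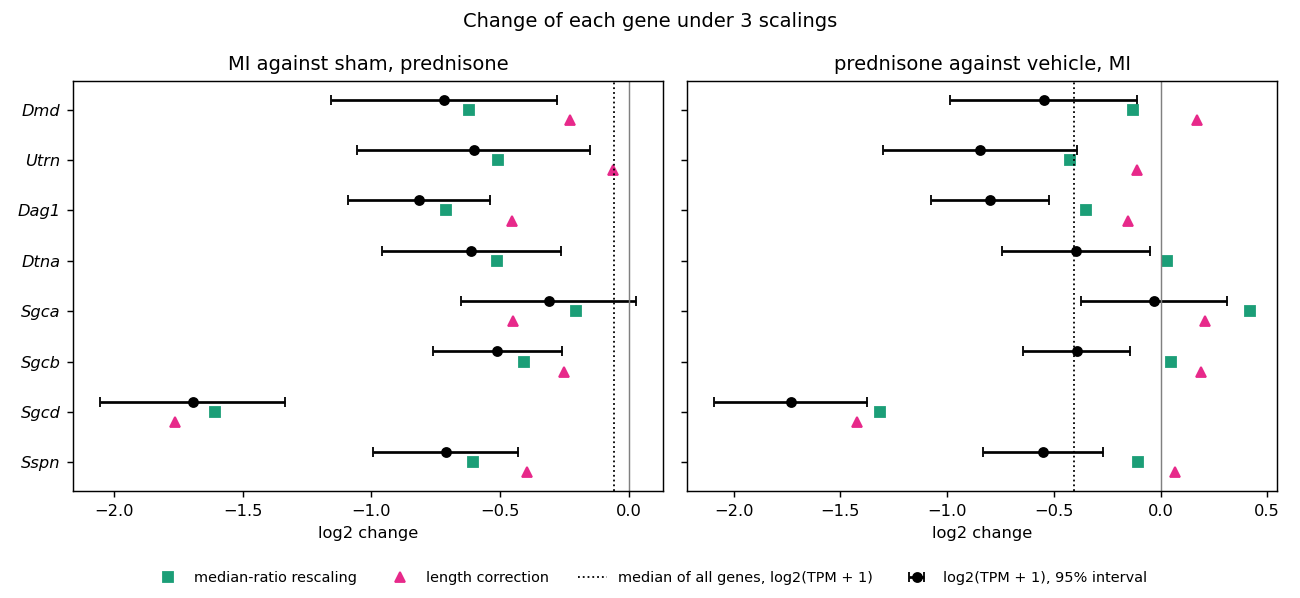
Log2 change (x axis) of each gene between MI and sham hearts given prednisone, left, and between prednisone and vehicle in MI hearts, right. Circles with 95% intervals are log2(TPM + 1) values, squares the median-ratio rescaling, triangles the length correction (no value for Dtna), and the dotted line the median of all genes. Sgcd is at -1.32 or lower on all 3 scales, and the other genes move towards or past 0 on the right.

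Sgcd encodes delta-sarcoglycan, a single-pass subunit that forms the sarcoglycan group of cardiac muscle together with other sarcoglycan chains. The gene lies on the minus strand of chromosome 11 (GRCm38, 46896253 to 47988969). Sham hearts with vehicle had 15.3, 16.7 and 15.5 TPM, and sham hearts with prednisone 19.2, 19.5 and 16.9 TPM. MI hearts with vehicle had 17.3, 21.9 and 18.2 TPM. MI hearts with prednisone had 3.66, 5.34 and 6.42 TPM, and no other heart came near them.

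Against MI hearts with vehicle, mean Sgcd fell by 73.1%, a log2 change of -1.73 (95% interval -2.09 to -1.37, limma adjusted p = 0.000317). Only 1.28% of all genes had a lower change. Against sham hearts with prednisone it fell by 1.69 on the log2 scale (adjusted p = 0.00067), and the interaction was -1.95 (adjusted p = 0.00395). The change between prednisone and vehicle in MI hearts was -1.32 with median-ratio rescaling and -1.42 with the length correction, and over all alternatives its adjusted p reached at most 0.0359. The interaction lost its call under 1 alternative, the length correction with the replicate block (-1.60, adjusted p = 0.0645). Of Sgcd TPM, 97.4% or more in every library lay on 1 transcript, Sgcd-201 (8 exons, 1617 bases, 289 codons). Genes with transcripts of 1000 to 2000 bases had a median change of -0.26 in this comparison. The annotated end of Sgcd-201 lies 82532 bases short of the furthest annotated 3′ end of the gene, that of Sgcd-202, a transcript at 0.027 TPM or less in every library.

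The 2 other sarcoglycans changed far less. Sgca, alpha-sarcoglycan (chromosome 11, 94962791 to 94976327), had 65.1 to 70.9 TPM in sham hearts with vehicle and 72.7 to 74.8 TPM with prednisone. MI hearts with vehicle spread more widely, with 64.7, 75.1 and 44.8 TPM, the lowest in replicate 3. Those with prednisone had 54.6, 59.7 and 62.7 TPM, inside that spread. Its log2 change between prednisone and vehicle in MI hearts was -0.03 (95% interval -0.37 to 0.31). Against sham hearts with prednisone it was -0.31 (limma adjusted p = 0.202), with no overlap between the groups.

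Sgcb, beta-sarcoglycan (chromosome 5, 73632749 to 73647790), was steady in the first 3 groups. It had 33.2, 34.6 and 35.7 TPM in sham hearts with vehicle, 35.4, 34.3 and 37.5 TPM with prednisone, and 33.3, 35.3 and 29.9 TPM in MI hearts with vehicle. In MI hearts with prednisone it had 25.9, 21.2 and 27.6 TPM, all below the rest. Sgcb fell by 0.39 against MI with vehicle (limma adjusted p = 0.021) and by 0.51 against sham with prednisone (adjusted p = 0.0118). The first call was lost without MI vehicle replicate 2 (-0.34, adjusted p = 0.0638) or MI prednisone replicate 2 (-0.28, adjusted p = 0.0716), and its sign turned with median-ratio rescaling, to 0.05. The second was lost without sham prednisone replicate 3, at -0.48 (adjusted p = 0.0518).

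Sspn encodes sarcospan, a 4-pass membrane protein bound to the sarcoglycans (chromosome 6, 145931641 to 145965223). It had 45.2, 47.2 and 47.4 TPM in sham hearts with vehicle and 46.3, 45.4 and 49.9 TPM with prednisone. With MI it had 42.8, 44.9 and 38.8 TPM under vehicle and 29.6, 23.0 and 33.5 TPM under prednisone. The last group lay below all other hearts. Sspn fell by 0.55 between prednisone and vehicle in MI hearts (limma adjusted p = 0.00776) and by 0.71 between MI and sham hearts given prednisone (adjusted p = 0.00483). The first change was -0.10 with median-ratio rescaling and 0.07 with the length correction, neither of them called. The interaction, -0.57 (adjusted p = 0.0462), was called in 2 of the 12 fits that left out 1 mouse, those without MI vehicle replicate 3 or MI prednisone replicate 3. Its value lay between -0.68 and -0.42 over the 12, and adjusted p between 0.0502 and 0.106 where the call was lost.

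Dag1 encodes the precursor that is cut into alpha- and beta-dystroglycan, the matrix receptor and its membrane anchor. The gene lies on the minus strand of chromosome 9 (108204634 to 108263958). Its summed TPM was 66.7, 75.4 and 69.2 in sham hearts with vehicle, 74.4, 80.9 and 79.3 with prednisone, and 75.5, 77.5 and 78.9 in MI hearts with vehicle. MI hearts with prednisone had 41.4, 37.6 and 54.5 TPM, the lowest 3 values. Dag1 fell by 0.80 against MI with vehicle (limma adjusted p = 0.00153) and by 0.82 against sham with prednisone (adjusted p = 0.00235), and the interaction was -0.95 (adjusted p = 0.0089). The first of these was -0.35 after median-ratio rescaling (adjusted p = 0.167) and -0.15 after the length correction (adjusted p = 0.493).

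The fall of Dag1 was uneven over its transcripts. Dag1-204, Dag1-201 and Dag1-203 have the same coding length, 2679 bases or 893 codons, and differ in their first exons and in where they end. Dag1-204 reaches the furthest 3′ end, and the others stop 1310 and 1324 bases before it. Dag1-204 had 46.4, 49.3 and 51.4 TPM in MI hearts with vehicle and 40.2, 36.5 and 50.1 TPM with prednisone, groups that overlapped (-0.22, limma adjusted p = 0.183). Dag1-201 went from 17.3, 16.6 and 15.2 TPM to 0.279, 0.121 and 1.59 TPM, and fell by 3.48 on the log2 scale (adjusted p = 3.63e-05). Dag1-203 went from 7.44, 7.65 and 7.91 TPM to 0.136, 0.126 and 1.08 TPM (-2.64, adjusted p = 6.85e-05). The share of Dag1 TPM on Dag1-204 was 61.4% to 72.2% in the first 3 groups and 92.0% to 97.1% in MI hearts with prednisone.

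Dtna encodes alpha-dystrobrevin, a dystrophin relative inside the cell that holds the syntrophins. Sham hearts had 17.2, 17.5 and 18.0 TPM with vehicle and 19.0, 20.2 and 21.5 TPM with prednisone. MI hearts had 16.7, 19.0 and 16.2 TPM with vehicle. With prednisone, replicates 1 and 2 had 11.1 and 10.9 TPM and replicate 3 had 17.4 TPM, inside the vehicle range. Dtna fell by 0.61 between MI and sham hearts given prednisone (limma adjusted p = 0.0233), a call lost in 5 of the 6 fits that left out 1 of those mice, all but the one without MI prednisone replicate 3, with adjusted p between 0.0539 and 0.102. Between prednisone and vehicle in MI hearts it was -0.40 (adjusted p = 0.0677), and -0.60 (adjusted p = 0.00348) without MI prednisone replicate 3. Its 2 transcripts, ENSMUST00000047954.13 and ENSMUST00000115832.2, kept nearly fixed proportions, the first holding 85.5% to 88.0% of Dtna TPM in every library.

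Dmd lies on the plus strand of chromosome X (82948870 to 85206141). Summed over its transcripts it had 10.2, 13.7 and 16.2 TPM in sham hearts with vehicle, 14.5, 14.2 and 13.0 TPM with prednisone, and 12.2, 13.0 and 11.5 TPM in MI hearts with vehicle. MI hearts with prednisone had 8.81, 5.65 and 10.3 TPM. They lay below MI hearts with vehicle, at -0.55 on the log2 scale (limma adjusted p = 0.0507), and reached into the sham vehicle range. Against sham hearts with prednisone Dmd fell by 0.72 (adjusted p = 0.0322), a call lost in 5 of the 6 fits without 1 mouse, all but the one without MI prednisone replicate 3, with adjusted p from 0.071 to 0.118. Without that mouse the change against MI with vehicle was called as well (-0.71, adjusted p = 0.0249). With the length correction the change between prednisone and vehicle in MI hearts was 0.17.

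Behind this modest sum, the TPM values assigned to single Dmd transcripts moved in opposite directions. Dmd-203, the full-length form (79 exons, 14910 bases, 3678 codons), had 5.20, 6.11 and 6.31 TPM in sham hearts with vehicle, 7.47, 8.38 and 6.39 TPM with prednisone, and 5.50, 6.53 and 3.93 TPM in MI hearts with vehicle. In MI hearts with prednisone it had 0.60, 0.581 and 2.02 TPM, below all 9 other hearts. It fell by 1.66 on the log2 scale against MI with vehicle (limma adjusted p = 0.00113) and by 2.09 against sham with prednisone (adjusted p = 0.000388).

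Dmd-201 starts at an internal site late in the gene and encodes a short dystrophin of 617 codons without the actin-binding domain and most of the rod (18 exons, 4438 bases). It had 1.80, 1.61 and 1.86 TPM in MI hearts with vehicle and 5.26, 3.14 and 4.46 TPM with prednisone, the highest 3 of all hearts. Sham hearts had 2.64, 1.94 and 1.96 TPM with vehicle and 0.743, 0 and 0.841 TPM with prednisone. Dmd-201 rose by 0.92 between prednisone and vehicle in MI hearts (limma adjusted p = 0.0175) and by 1.82 between MI and sham hearts given prednisone (adjusted p = 0.000763). The interaction was 2.02 (adjusted p = 0.00508), and includes a change of -1.10 with prednisone in sham hearts (adjusted p = 0.418). The first call was lost without MI prednisone replicate 1 (0.79, adjusted p = 0.0718) and with a pseudocount of 0.1 (1.21, adjusted p = 0.205). As a share of Dmd TPM it went from 12.3% to 16.3% in MI hearts with vehicle to 43.2% to 59.7% with prednisone (exact permutation p = 0.1, two-sided, the smallest that 3 against 3 mice allow).

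Dmd-202 begins at the same base as Dmd-201 (85048413) and went the other way. It ends at the stop codon with almost none of the last exon (1858 bases, 604 codons). In MI hearts it had 1.22, 2.15 and 1.42 TPM with vehicle and 0.0605, 0.488 and 0.275 TPM with prednisone, and fell by 1.02 (limma adjusted p = 0.00651). Of the 2 transcripts from this start, the one that carries 70.0% of the last exon was higher and the one that carries 0.76% of it was lower. Dmd-201 shares all its exonic bases with Dmd-203 except those 5493 to 5540 bases from the furthest 3′ end, which Dmd-202 also has. The TPM of Dmd-203, Dmd-201 and Dmd-202 thus rests largely on how reads of shared bases were divided. The part of this division in their changes was not tested. Dmd-204, a non-coding fragment of 4 exons, had 0.405 to 2.00 TPM and 0.465 to 1.55 TPM in the same groups, which overlapped.

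Windows at 2 Dmd starts are shown because Dmd-203 and Dmd-201, which moved in opposite directions, begin within the first and near the second. They are RefSeq promoter windows on GRCm38.p6, plus strand, from 250 bases before the start to 50 bases after it. The first, chrX:82948620-82948919, covers the muscle start, and the second, chrX:85048045-85048344, the RefSeq internal start. GENCODE starts Dmd-201 further on, at 85048413, beyond the end of that window. Capitals mark AGAACA or TGTTCT (the half-site of the glucocorticoid receptor), GGGCGG or CCGCCC (a GC box) and CANNTG (an E box), searched on both strands.
Dmd muscle start: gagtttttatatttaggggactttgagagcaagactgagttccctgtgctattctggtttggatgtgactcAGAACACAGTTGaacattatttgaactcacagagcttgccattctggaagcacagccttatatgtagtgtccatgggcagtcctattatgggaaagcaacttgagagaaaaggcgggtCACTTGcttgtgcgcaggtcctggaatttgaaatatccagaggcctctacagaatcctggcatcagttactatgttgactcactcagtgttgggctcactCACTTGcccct
Dmd internal start: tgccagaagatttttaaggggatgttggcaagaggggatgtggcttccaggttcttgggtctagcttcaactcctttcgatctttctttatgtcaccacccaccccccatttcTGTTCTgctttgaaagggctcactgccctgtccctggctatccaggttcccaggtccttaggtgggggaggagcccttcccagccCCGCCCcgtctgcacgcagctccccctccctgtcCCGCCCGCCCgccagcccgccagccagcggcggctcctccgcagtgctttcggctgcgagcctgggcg
The muscle start held 1 half-site, 3 E boxes and 0 GC boxes, with an E box directly after the half-site, and the internal start 1 half-site, 3 GC boxes, of which 2 overlap, and 0 E boxes. GC content was 45.7% and 62.7%. Over the 10 RefSeq promoter windows of 7 of the genes (none was used for Dtna), the half-site was in 2, both of Dmd, a GC box in 5 and an E box in 7. Of all 32851 windows of this length, 19.0% held the half-site, 35.7% a GC box and 72.3% an E box. A match is a description of the letters and not a binding site.

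Utrn, on the minus strand of chromosome 10 (12382188 to 12869365), had summed values of 8.01, 10.7 and 8.51 TPM in sham hearts with vehicle and 11.3, 10.8 and 9.75 TPM with prednisone. MI hearts had 10.9, 9.85 and 19.1 TPM with vehicle, where replicate 3 stood apart, and 6.41, 6.30 and 7.24 TPM with prednisone, below all other hearts. Utrn fell by 0.85 between prednisone and vehicle in MI hearts (limma adjusted p = 0.00962), and by 0.57 without MI vehicle replicate 3 (adjusted p = 0.00805). With the length correction it was -0.11 (adjusted p = 0.535). Its interaction, -1.06 (adjusted p = 0.0285), lost its call in 7 of the 12 fits without 1 mouse (adjusted p from 0.0544 to 0.0765). These were the fits without sham vehicle replicate 1 or 3, any 1 of the sham prednisone mice, or MI prednisone replicate 1 or 2. Under vehicle, the change from sham to MI was 0.46 (adjusted p = 0.116), and 0.18 (adjusted p = 0.369) without that replicate.

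Utrn split as Dmd did. Full-length Utrn-201 (74 exons, 12382 bases, 3430 codons) had 4.55 to 6.44 TPM in the 6 sham hearts and 6.66, 6.41 and 9.01 TPM in MI hearts with vehicle. With MI and prednisone it had 0.954, 1.49 and 2.86 TPM, and fell by 1.64 against MI with vehicle (limma adjusted p = 0.000808). Utrn-205, which has the same coding length and ends 1192 bases earlier, went from 1.56, 1.62 and 2.83 TPM to 0.0151, 0.0263 and 0.220 TPM (-1.45, adjusted p = 0.00139).

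Utrn-206, a late-starting transcript of 25 exons that shares the last exon with Utrn-201 (5751 bases, 956 codons), was near 0 in 9 hearts, with 0.328 TPM or less. It had 4.96, 4.57 and 3.75 TPM in MI hearts with prednisone, where it was the main Utrn transcript with 51.7% to 77.4% of Utrn TPM. It rose by 2.28 against MI with vehicle (limma adjusted p = 6.97e-05) and by 2.27 against sham with prednisone (adjusted p = 7.33e-05). Utrn-206 reached 1 TPM only in MI hearts with prednisone, so it passed the filter through that group alone. Its p-values therefore add no support beyond the TPM values. Utrn-204, with as many exons but only 0.45% of the last one, was listed at 0 in all 3 MI hearts with prednisone and at 0.697 to 3.98 TPM with vehicle (-1.48, adjusted p = 0.0113).

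**Figure D3:**
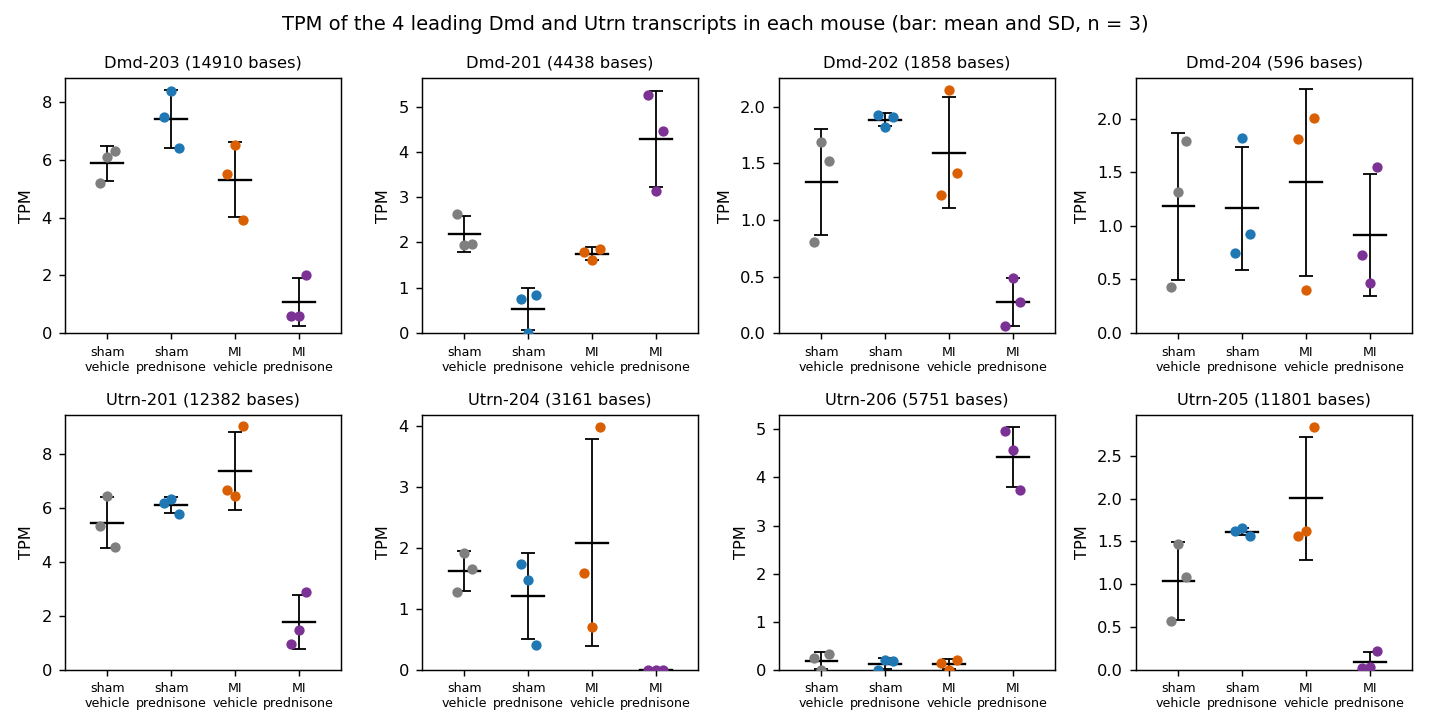
TPM (y axis, from 0) of the 4 leading Dmd transcripts, top, and Utrn transcripts, bottom, in the 4 groups; points are mice, and bars show the mean and SD of 3 mice. Dmd-201 and Utrn-206 are highest in MI hearts with prednisone, where Dmd-203 and Utrn-201 are lowest.

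The TPM-weighted transcript length of Dmd was 8006, 8623 and 6585 bases in MI hearts with vehicle and 4088, 4486 and 5459 bases with prednisone. For Utrn it was 9951, 10410 and 8553 bases and then 6395, 7184 and 8316 bases. Both pairs of groups did not overlap. Of 6386 genes with several transcripts, 46.7% shortened, 1.88% more than Dmd and 6.01% more than Utrn. Other members did not shorten. Dag1 and Sgca each lengthened by 0.14 on the log2 scale, above 80.3% and 79.6% of these genes, and Sspn hardly moved. Dag1 went from 4959, 5002 and 5014 bases to 5544, 5537 and 5438 bases. The ratio of Utrn to Dmd, each summed, was 0.893, 0.756 and 1.66 in MI hearts with vehicle and 0.727, 1.11 and 0.701 with prednisone. The difference of the log2 ratio was -0.33 (exact permutation p = 0.5, two-sided, with 0.1 the smallest possible). With the full-length transcripts alone it was 0.36 (exact permutation p = 0.5).

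Over all kept transcripts of the 8 genes, limma called 0 of 26 between MI and sham with vehicle, beside 2.84% of all 27769 transcripts, and 0 of 26 between prednisone and vehicle in sham hearts, beside 0.054%. At an unadjusted p under 0.05 there was 1 in each, beside 24.9% and 4.82%. For prednisone against vehicle in MI hearts 15 were called, 13 lower and 2 higher, beside 33% of all transcripts (27.1% lower and 5.92% higher). For MI against sham under prednisone the numbers were again 15, 13 and 2, beside 22.3% (15.6% and 6.75%). In the interaction they were 11, 9 and 2, beside 18.7% (15.8% and 2.87%). In each of these the 2 higher were Dmd-201 and Utrn-206, of which Utrn-206 passed the filter only through MI hearts with prednisone.

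**Figure D4:**
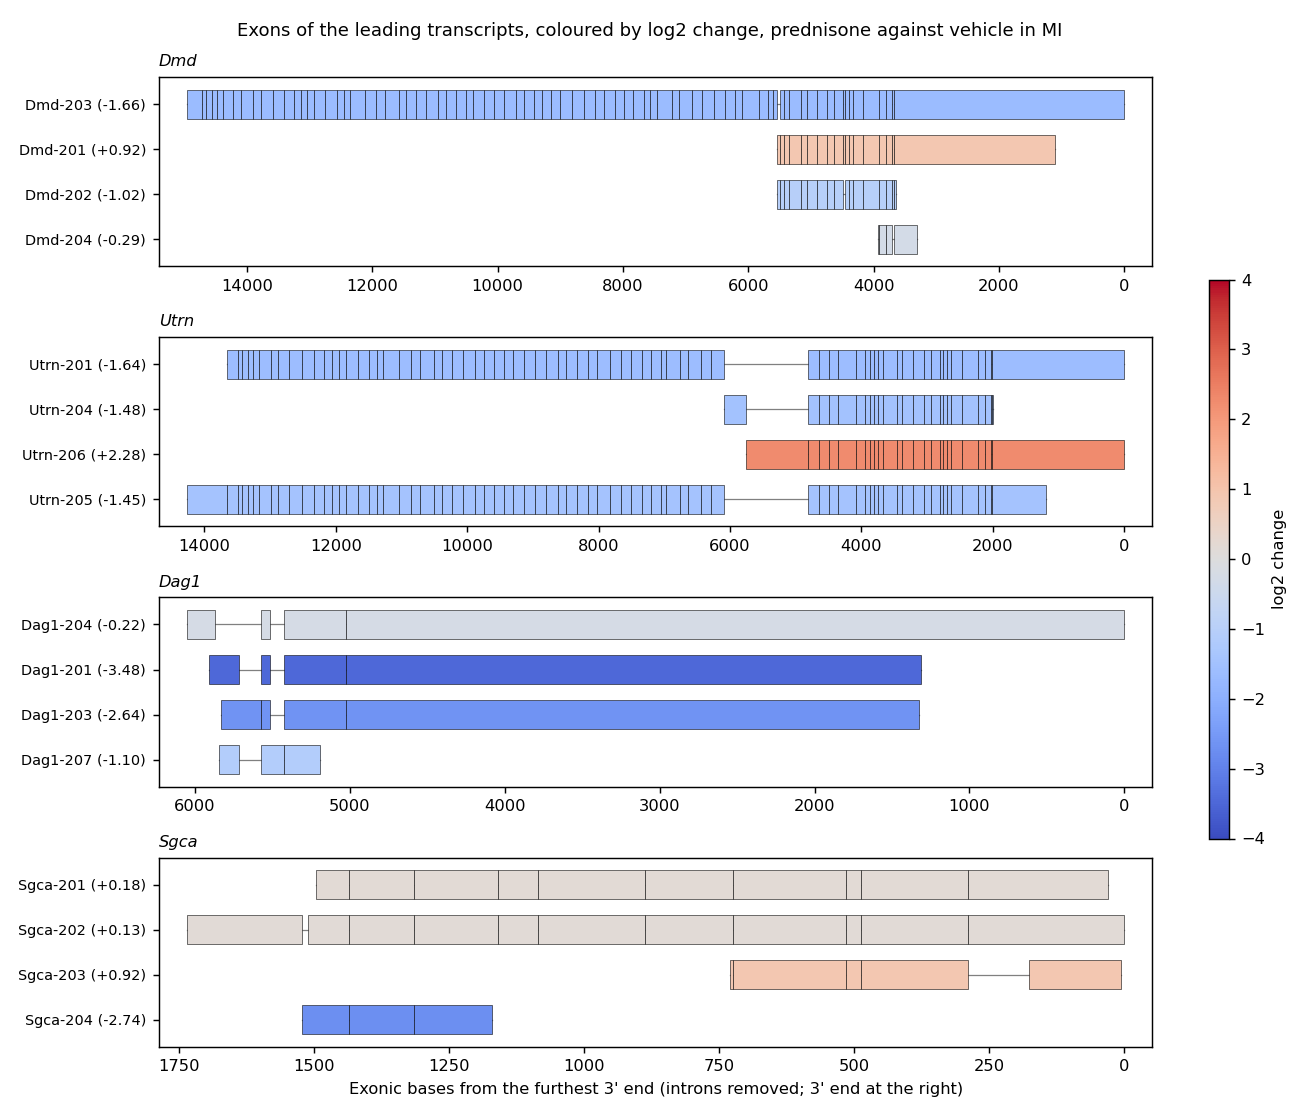
Exons of the leading transcripts of 4 genes as boxes, by exonic distance in bases from the furthest 3′ end (x axis, introns removed, 3′ end at the right), coloured by the log2 change between prednisone and vehicle in MI hearts, which also stands beside each name. Dmd-201 and Utrn-206 (0.92 and 2.28) carry most of the long last exon, and Dmd-202, Utrn-204 and Sgca-204 (-1.02, -1.48 and -2.74) carry almost none of it. Carrying it did not always go with a rise. Dmd-203 and Utrn-201 (-1.66 and -1.64) carry all of it and fell, as did Dag1-201 and Dag1-203 (-3.48 and -2.64), which carry 73.9% and 73.7%.

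Sgca, whose summed TPM was called in no comparison, also had fragments at its 2 ends. Sgca-204, a fragment of the first 3 exons (351 bases), had 9.23, 20.0 and 7.17 TPM in MI hearts with vehicle and 0, 0.773 and 2.28 TPM with prednisone, and fell by 2.74 (limma adjusted p = 0.00113). Sgca-203, a fragment at the 3′ end (610 bases), had 6.60, 10.8 and 1.72 TPM and then 10.9, 14.6 and 7.94 TPM (0.92, adjusted p = 0.128). The complete Sgca-201 had 27.7 to 34.9 TPM and 33.3 to 40.8 TPM, with overlap.

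These pairs were set beside all genes. Each transcript of at most 60% of the length of its gene's longest coding transcript was compared with that transcript, and the change of their log2 ratio was taken between prednisone and vehicle in MI hearts. Both transcripts of a pair had to pass the filter. A short transcript high only in MI hearts with prednisone, as Utrn-206 was, could pass through that group alone. Such pairs raise the values of their class, and their number was not counted. For 320 pairs in 278 genes whose short transcript held at least 50% of the last exon, the median was 1.05, and 81.6% were above 0. For 3717 pairs whose short transcript did not, it was -0.29, with 35.4% above 0. In sham hearts the medians were -0.10 and 0.07, and between MI and sham with vehicle -0.05 and 0.00. Dmd-201 over Dmd-203 changed by 2.58 and Utrn-206 over Utrn-201 by 3.92, above 83.8% and 95.9% of the first class. Sgca-203 over Sgca-202, the remaining pair of that class, changed by 0.79, above 43.4% of it. Sgca-204 over Sgca-202 changed by -2.87, with 1.10% of the second class below it. Dmd-202 over Dmd-203 changed by 0.64 and Utrn-204 over Utrn-201 by 0.16, against the median of that class. The Dag1 pairs of that class, Dag1-206 and Dag1-207 over Dag1-204, changed by -0.63 and -0.88. The direction of Dmd-201 and Utrn-206 was the common one among the pairs of their class that passed the filter, which include these 2. The leading transcript differed between the 2 groups for 2 of 6 genes, Dmd and Utrn, and for 25.1% of all 6570 genes with several kept transcripts. Read coverage and RNA integrity were not measured here. The length trend and the difference between these 2 classes moved with the same comparison, and their part in the changes of Dmd and Utrn was not tested.

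Other subunits of the complex gave no common direction beyond the general shift. Of 10 listed genes 6 passed the filter. With prednisone, MI hearts had 3 of the 6 called lower than with vehicle, beside 34.9% of all genes, and 0 higher. The median was -0.47, beside -0.41 over all genes. The 3 were the syntrophins Sntb1 and Sntb2, adaptors that bind dystrophin and dystrobrevin, and Sgce, the epsilon-sarcoglycan of smooth muscle and other tissues. Sntb2 had 4.15, 4.09 and 5.57 TPM with vehicle and 1.52, 1.92 and 1.92 TPM with prednisone (-1.0, limma adjusted p = 0.00217). Sgce, the 1 gene called between MI and sham with vehicle (0.61, adjusted p = 0.0441), had 15.2, 16.0 and 20.4 TPM and then 11.2, 11.3 and 8.06 TPM (-0.70, adjusted p = 0.0122). Sntb1 had 2.01, 1.82 and 4.58 TPM and then 0.529, 1.56 and 0.703 TPM, and its call (-0.94, adjusted p = 0.0265) was lost without MI vehicle replicate 3 (-0.63, adjusted p = 0.0717), MI prednisone replicate 1 (-0.79, adjusted p = 0.0962) or MI prednisone replicate 3 (-0.87, adjusted p = 0.0739). Dtnb, beta-dystrobrevin, was called in no comparison, and Sgcz, Sntg1, Sntg2 and Drp2 did not pass the filter.

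Dystroglycan binds laminin through sugar chains built by a dedicated set of enzymes, and all 17 of those listed passed the filter. In MI hearts, 7 of the 17 fell with prednisone, beside 34.9% of all genes, and 0 rose. Their median was -0.31, beside -0.41 over all genes. The change of Ispd, which makes the ribitol donor, was -0.59 between prednisone and vehicle in MI hearts (limma adjusted p = 0.0145), and -0.54 (adjusted p = 0.0554) without MI prednisone replicate 1. With the length correction it was -0.11. Dpm3, a subunit of the enzyme that makes the mannose donor, was the 1 gene that rose between MI and sham with vehicle (0.78, adjusted p = 0.0455), a call lost in 5 of 6 fits without 1 mouse, all but the one without MI vehicle replicate 1 (adjusted p from 0.0552 to 0.162).

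Matrix ligands and linkers around the complex moved in both directions. Of 13 listed genes 12 passed the filter. For MI against sham under prednisone 9 of the 12 were called, 6 lower and 3 higher, beside 14.1% and 2.73% of all genes. Their median was -0.28, beside -0.06 over all genes. The 3 that rose are matrix proteins that bind dystroglycan or the laminin network, Hspg2 (perlecan), Agrn (agrin) and Lamc1 (laminin gamma chain). Hspg2 had 40.3, 41.0 and 41.7 TPM in sham hearts with prednisone, 41.2, 53.9 and 39.9 TPM in MI hearts with vehicle, and 103, 98.4 and 92.3 TPM in MI hearts with prednisone, clear of all others. It rose by 1.23 against sham with prednisone (limma adjusted p = 0.000492) and by 1.66 with the length correction. Another matrix protein fell, Lamb1, a laminin beta chain (-0.42, adjusted p = 0.0244). Of the others that fell, Plec (plectin), Ank2 and Ank3 (ankyrins) join membrane proteins to the cytoskeleton. Plec had 24.3, 26.2 and 21.6 TPM in sham hearts with prednisone, 18.6, 20.5 and 19.3 TPM in MI hearts with vehicle, and 9.44, 10.6 and 12.4 TPM with both. Its interaction was -1.09 (adjusted p = 0.00787), and -0.20 (adjusted p = 0.548) with the length correction. Ank2 and Ank3 fell by 1.11 and 1.05 between MI and sham hearts given prednisone (adjusted p = 0.00546 and 0.0077). With vehicle, MI and sham hearts differed for 1 of the 12, beside 16% of all genes. It was Actg1, a cytoplasmic actin (0.97, adjusted p = 0.0309).

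**Figure D5:**
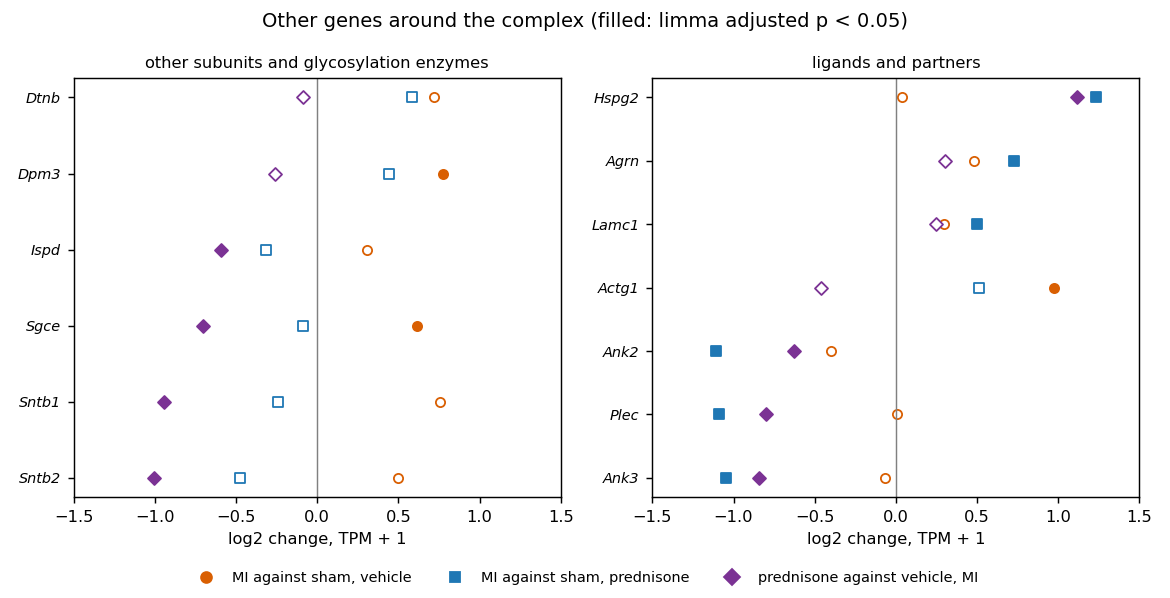
Log2 change on the TPM + 1 scale (x axis) of subunits and glycosylation enzymes, left, and of ligands and partners, right, in 3 comparisons. Filled symbols mark a limma adjusted p under 0.05. The genes drawn are named in the text, but Lamb1, which fell between MI and sham hearts given prednisone, is not drawn. Hspg2 lies at 1.12 and 1.23 in the comparisons that include MI hearts with prednisone, and Ank2, Ank3 and Plec lie below -0.6 in both.

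To see which genes had the pattern most like each member, the 8108 other genes at 5 TPM or more on average were ranked by the root mean square difference of centred log2 values over the 12 libraries. The 3 nearest to Sgcd were Tmem245, Alg10b and Fyttd1 (0.15 to 0.17, where Sgcd itself varied by 0.73). Dag1 was nearest to Ptprm, Exoc6 and Fam20b, Sspn to Wfs1, Epm2a and Ube2b, and Sgcb to Lynx1, Fam185a and Epm2a. Nearest to Dmd were Rbm24, Amd1 and Nars2, to Utrn Scyl2, Nup98 and Papd5, and to Dtna Ldb3, Ktn1 and Pdha1. Sgca was nearest to Pde4dip and to the mitochondrial genes mt-Nd4 and mt-Cytb. All points share the 12 libraries and their composition.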

How the data were processed

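RNA-seq of 12 myocardium libraries was analysed. The authors deposited TPM per transcript, each library summing to 1000000, in 105129 rows with versioned Ensembl identifiers and gene symbols. The submitters' processing notes name Trimmomatic, HISAT2, kallisto and mm10 without roles or versions, and per the labels' protocols RNA was purified with Trizol and columns for stranded mRNA libraries. TPM holds no read number, so the depth is unknown and precision rests on 3 mice per group. Rows were summed by symbol, genes and transcripts with at least 1 TPM in at least 3 libraries were kept, and log2(TPM + 1) was fitted with limma 3.58.1 in R 4.3.3 (trend, 4 group means, all 12 libraries). The design held a test for counts and one for normalized values, and the latter was used. A call is a Benjamini-Hochberg adjusted p under 0.05 over all features, intervals are 95%, and exact permutation tests were two-sided. Lengths, exons and coordinates came from GENCODE M21 (GRCm38) by versioned identifier, which matched 94.7% of rows, but neither Dtna transcript. A changed mitochondrial share moves the TPM of every other gene, and overlapping genes or near-identical copies can trade TPM. Fits were tested on simulated data.

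The members and gene lists were chosen with earlier results of these data known. Named were all members, their transcripts with a mean of at least 1 TPM (at most 4 per gene), of each list of related genes the 4 called genes with the largest change, and the 3 genes nearest in pattern. Some genes of these lists are not reported here. Other list genes, the pairing of short and long transcripts by the last exon and the weighted lengths were chosen after values were seen. Alternatives were median-ratio rescaling, no filter, a pseudocount of 0.1, no trend, the replicate block, only 2 groups, each mouse left out, the leading transcript alone, leaving out rows of mitochondrial genes, their nuclear copies and globins, and a length correction (loess, span 0.5).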

Additional observations from a re-analysis of the deposited data

Results flagged for a closer look

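The prednisone effect in MI hearts differed from that in sham hearts by limma's interaction test for 4 of the 8 genes. All 4 differences were negative, beside 20.7% of all genes called in that direction. The difference, MI minus sham on the log2 scale, was -0.95 for Dag1, -1.95 for Sgcd, -0.57 for Sspn and -1.06 for Utrn. The median difference over all genes was -0.48. In sham hearts the prednisone effects of these 4 genes were between 0.02 and 0.21.

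The same test was passed by 11 of the 26 kept transcripts, all of them leading ones. Of all transcripts 18.7% passed it (15.8% lower and 2.87% higher). The difference was positive for the short Dmd-201 (2.02) and Utrn-206 (2.35), which share most of the last exon of their genes. It was negative for the full-length Dmd-203 (-1.95), Utrn-201 (-1.79) and Utrn-205 (-1.83), and for Dmd-202 (-1.35). Among Dag1 transcripts it was -3.79 for Dag1-201, -2.89 for Dag1-203 and -1.16 for Dag1-207, a fragment of the first exons. For Sgca-204 it was -3.0 and for Sgcd-201 it was -1.95. Utrn-206 passed the filter only through MI hearts with prednisone. The prednisone effect on Dmd-201 was -1.10 in sham hearts and 0.92 in MI hearts, and both enter its difference.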

How the results depend on the processing

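TPM keeps no read number, so the depth behind any value is unknown, and changes of transcripts near 0 depend on the pseudocount. The fall of Sgcd in both comparisons of MI hearts with prednisone was called under all alternatives run. The counts of the other genes moved with the scaling and with single mice, and the cause was not tested.

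All genes called between MI and sham with vehicle were 2100, and 979 with median-ratio rescaling, 1068 with no filter, 613 with the length correction, 2 with only these 2 groups fitted, and 120 to 5570 without 1 mouse. Between MI and sham with prednisone the count was 2213, and 3417 with median-ratio rescaling, 3648 without mitochondrial, nuclear-copy and globin rows, 3420 with only these groups, and 1023 to 2632 without 1 mouse. For prednisone against vehicle in MI hearts it was 4917, and 1983 with the length correction, 902 with only these groups, and 3242 to 6221 without 1 mouse. In sham hearts it was 15, and 25 with only these groups and 4 to 9 without 1 mouse. The interaction called 2797, and 1323 with median-ratio rescaling, 250 with the length correction, and 1110 to 4496 without 1 mouse.

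The length correction has no value for Dtna in the counts that follow. Calls over all genes, given above for several of these settings, moved as well, so the counts alone do not set the complex genes apart. Of the 8 complex genes, 6 were called between MI and sham with prednisone, 3 with median-ratio rescaling, 1 with the length correction, and 3 to 6 without 1 mouse. For prednisone against vehicle in MI hearts 5 were called, 2 with median-ratio rescaling, 1 with the length correction, 3 without mitochondrial, nuclear-copy and globin rows, 2 with only these groups, and 4 to 7 without 1 mouse. The interaction called 4, 1 with median-ratio rescaling, 2 with no filter, 1 with the length correction, and 2 to 6 without 1 mouse. The log2 ratio of Utrn to Dmd taken from the leading transcripts alone differed by 1.12 between MI and sham with prednisone (0.12 for the sums), by 0.36 between prednisone and vehicle in MI hearts (-0.33) and by -0.15 in sham hearts (0.16).

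Replicate numbers are shared between groups but did not pair the mice, with a mean correlation of same-numbered deviations of -0.37, -0.05, -0.25 and 0.003 in the 4 comparisons. With the replicate block, 1056 genes were called between MI and sham with vehicle and 7 between prednisone and vehicle in sham hearts. The block ended the call of Dmd between MI and sham with prednisone (limma adjusted p = 0.0516) and of Sspn in the interaction (adjusted p = 0.0658), and of no other complex gene. The length correction with the replicate block called 69, 950, 1340 and 6 genes in the 4 comparisons and 97 in the interaction. Of the complex genes it called 1 between MI and sham with prednisone, 1 between prednisone and vehicle in MI hearts and 0 in the interaction, and 6 of their transcripts in the interaction, where 11 were called otherwise.

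Signs turned for these values, of which those of Sgcb, Sgcb-201 and Sspn for prednisone in MI hearts and of Sspn in the interaction had been called and the others had not. With median-ratio rescaling, MI against sham with vehicle was -0.30 for Dag1 and -0.16 for Sgcd. Prednisone against vehicle in MI hearts was 0.42 for Sgca, 0.051 for Sgcb, 0.032 for Dtna, 0.22 for Dag1-204, 0.044 for Sgcb-201 and 0.039 for ENSMUST00000047954.13. In sham hearts it was -0.016 for Dmd, -0.041 for Sgcb and -0.072 for Sspn, and the interaction was 0.39 for Sgca and 0.091 for Sgcb. The length correction, with or without the replicate block, gave -0.26 for Dag1 and -0.16 for Sgcd in MI against sham with vehicle. For prednisone against vehicle in MI hearts it gave 0.17 for Dmd, 0.21 for Sgca, 0.19 for Sgcb, 0.069 for Sspn, 0.37 for Dag1-204 and 0.094 for Sgcb-201. In sham hearts it gave -0.056 for Dmd, -0.047 for Sgcb and -0.086 for Sspn, in the interaction 0.22 for Dmd, 0.12 for Sgca, 0.24 for Sgcb and 0.15 for Sspn, and in MI against sham with prednisone 0.086 for Dag1-204.

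Without mitochondrial, nuclear-copy and globin rows, Dag1 was at -0.10 in MI against sham with vehicle, and Dmd, Sgcb and Sspn were at -0.0024, -0.028 and -0.060 for prednisone in sham hearts. Sgca was at 0.050 for prednisone in MI hearts and 0.0094 in the interaction, and Sgca-201 at -0.0046 in MI against sham with prednisone. From its leading transcript alone Sgca was at 0.076 in MI against sham with prednisone, 0.18 for prednisone in MI hearts, -0.073 in sham hearts and 0.25 in the interaction. Leaving out 1 mouse gave Sgca -0.24 to 0.13 for prednisone in MI hearts, above 0 without MI prednisone replicate 1 or MI vehicle replicate 1 or 2, and -0.36 to 0.012 in the interaction, above 0 without MI vehicle replicate 2. In MI against sham with vehicle it gave Sgca -0.32 to 0.043 and Dtna -0.091 to 0.020, both above 0 without MI vehicle replicate 3, and Dmd -0.27 to 0.038, above 0 without sham vehicle replicate 3. For prednisone in MI hearts Sgca-202 ran from -0.12, without MI vehicle replicate 3, to 0.36. For prednisone in sham hearts Dmd ran from -0.10, without sham vehicle replicate 1, to 0.21. Sspn ran there from -0.024 to 0.043, below 0 without sham vehicle replicate 1 or sham prednisone replicate 3. In MI against sham with prednisone, Dmd-204 ran from -0.41 to 0.020, above 0 without sham prednisone replicate 2, and Sgca-201 from -0.00084, without MI prednisone replicate 3, to 0.14.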

Other observations

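Among the 8 genes, patterns over the 12 libraries were closest between Sgcb and Sspn, with a root mean square difference of centred log2 values of 0.095, and furthest apart between Sgca and Sgcd, at 0.67. Sgcd differed from each of the other 7 by 0.41 or more. Sspn-203, a minor transcript with an alternative first exon, had 0.747, 1.08 and 1.20 TPM in MI hearts with vehicle and 1.04, 3.65 and 2.86 TPM with prednisone (0.73, limma adjusted p = 0.0933), while Sspn-201 fell by 0.68 (adjusted p = 0.00957).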
